A study of Mus musculus with 7 samples.

Results

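DNA replication and S phase genes are taken here as 39 listed genes whose products license origins, unwind and copy DNA, supply nucleotides and histones, and start S phase. Each was represented by the probe set that names only that gene and has the highest mean over all arrays. By this rule 38 of the 39 were measured, all 38 passed the filter on dim genes, and they stand among 11460 genes tested of 18193 with a probe set. Chaf1a was not analysed here. RNA of sorted CD4+ T cells was hybridised to 7 Affymetrix mouse arrays. The mice were males, 3 weeks old, and the cells came from their peripheral lymph nodes. The arrays labelled Sf.Il2-/- (3) are from scurfy mice that also carry the null Il2 allele B6.129P2-Il2tm1Hor/J. Those labelled Sf (3) are from scurfy mice, B6.Cg-Foxp3sf/J, whose mutant Foxp3 impairs a factor on which regulatory T cells depend, so both mutant groups share the Foxp3 mutation. The 1 B6 array is C57BL/6, from cells pooled from 2 mice. Cells positive for B220, CD8, CD11b, CD11c or NK1.1 were removed before sorting on CD3 and CD4. Levels are log2(intensity + 1) of the authors' deposited values, so a difference of 1 is a doubling on that scale. Levels of different probe sets are not compared as amounts of RNA.

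On every array the CD4 T cell markers were bright, from 9.44 to 11.85 over 7 measured markers, and Cd4 itself lay between 10.26 and 11.07 on arrays labelled Sf.Il2-/-, between 9.44 and 10.71 on Sf arrays and at 11.27 on the B6 array. The Il2 probe set did not follow the labels. It read 7.17, 8.20 and 7.74 on the arrays labelled Sf.Il2-/-, against 5.39, 5.09 and 7.35 on the Sf arrays and 5.22 on the B6 array. Whether this probe set lies outside the deleted part of the allele was not tested, so it checks nothing about the genotype, and every direction given for Sf.Il2-/- rests on the labels alone. Foxp3 read 4.41, 4.20 and 4.24 on the arrays labelled Sf.Il2-/-, against 6.04, 5.87 and 6.32 on the Sf arrays and 7.25 on the B6 array. From the background of dim probe sets, the arrays fall into a set of Sf 1, Sf 2, Sf.Il2-/- 1 and Sf.Il2-/- 2 and a set of B6, Sf 3 and Sf.Il2-/- 3. The lowest correlation within the sets (0.553) did not exceed the highest between them (0.554), so the division is uncertain, and the labels name no such sets.

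Before a cell copies its DNA, the origin recognition complex, Cdc6 and Cdt1 load the MCM ring onto origins. Cdc45 and the GINS proteins then turn that ring into the working helicase, primase and polymerases copy the strands on the PCNA clamp, and ribonucleotide reductase and thymidine kinase supply deoxynucleotides. Most of these genes are known targets of E2F transcription factors, which cyclin E with its kinase helps to release from the retinoblastoma protein. A resting naive T cell enters this programme after it meets antigen, and interleukin-2 is a well known growth factor for activated T cells.

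Promoters of 33 of the 39 genes were found in RefSeq sequences of GRCm38.p6, from 250 bases before to 50 bases after the annotated start. They were searched on both strands for 4 words bound by E2F proteins, TTTCCCGC, TTTCGCGC, TTTGCCGC and TTTGGCGC. Matches that overlap were counted separately. At least 1 word was present in 13 of the 33 genes (39.4%), against 4.71% of 9311 tested genes and 2.6% of all 27025 genes of the promoter table. These 13 are Orc1, Cdc6 and Cdt1 of origin licensing, Mcm3, Mcm5, Mcm6, Mcm7 and Gins3 of the helicase, Pola1 and Pold1 of the polymerases, the clamp loader subunit Rfc3, the ligase Lig1 and the chromatin protein Uhrf1. Other replication genes held a word in 18 of 49 (36.7%), and mitosis genes in 1 of 23 (4.35%). A match is a description of the letters and not a binding site.

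**Figure D1:**
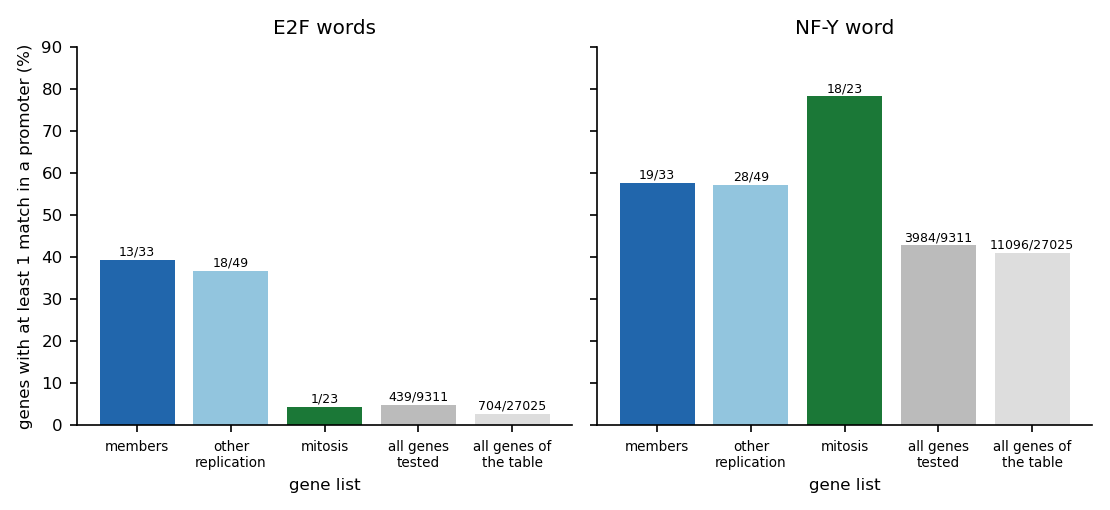
Share of genes (%) with at least 1 match in the window from 250 bases before to 50 after an annotated start, for the E2F words (left) and for CCAAT, the word bound by NF-Y (right); numbers over the bars are genes with a match over genes with a promoter. E2F words were in 39.4% of the members and 4.71% of the genes tested, and CCAAT was in 57.6% of the members, 78.3% of the mitosis genes and 42.8% of the genes tested.

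With 2 or more E2F words there were 5 genes of the 33 (15.2%), against 0.107% of the genes of the table, and 4 of them encode subunits of the MCM ring. They are printed because they hold the most matches, and were picked after the matches were seen. Each is the gene's strand, read from RefSeq on GRCm38.p6, with the E2F words of either strand in capitals. Position 0 is an annotated start of a transcript, and positions before it are upstream of that start. For Mcm3 (chr1:20820267-20820293, minus strand) the words lie at 19 to 45, within the transcribed part. For Mcm6 (chr1:128359725-128359835, minus strand) the stretch from -130 to -20 is upstream, and 2 of its 3 words overlap. For Mcm7 (chr5:138171860-138172068, minus strand) it runs from -185 to 23. The gene spans chr5:138164583-138172111, so this whole stretch lies inside it. The other annotated Mcm7 promoter held no E2F word. For Rfc3 (chr5:151651181-151651238, minus strand) the stretch runs from -30 to 27. For Mcm5 (chr8:75109336-75109387, plus strand) it runs from -173 to -122 and its 2 words overlap.
Mcm3: GCGGGAAAacttgggaagtTTTGGCGC
Mcm6: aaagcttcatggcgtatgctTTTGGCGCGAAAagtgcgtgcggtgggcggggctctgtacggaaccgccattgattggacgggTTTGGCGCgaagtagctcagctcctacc
Mcm7: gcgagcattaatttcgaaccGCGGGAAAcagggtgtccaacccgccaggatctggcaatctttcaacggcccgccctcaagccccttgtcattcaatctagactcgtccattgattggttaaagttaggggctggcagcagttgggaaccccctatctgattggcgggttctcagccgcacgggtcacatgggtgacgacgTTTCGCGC
Rfc3: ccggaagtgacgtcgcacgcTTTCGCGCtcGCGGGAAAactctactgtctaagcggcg
Mcm5: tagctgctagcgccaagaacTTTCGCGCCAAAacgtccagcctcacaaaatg

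None of the promoters of the 6 nucleotide supply genes held an E2F word, although the 2 members past the test's threshold below, Rrm2 and Tk1, are both of that group. No match says only that these letters are not in the window. The Rrm2 promoter (chr12:24708004-24708253, plus strand, the 250 bases upstream of a gene that spans chr12:24708254-24714146) is shown because Rrm2 passed the test in both comparisons with B6. Its 1 CCAAT is in capitals.
Rrm2: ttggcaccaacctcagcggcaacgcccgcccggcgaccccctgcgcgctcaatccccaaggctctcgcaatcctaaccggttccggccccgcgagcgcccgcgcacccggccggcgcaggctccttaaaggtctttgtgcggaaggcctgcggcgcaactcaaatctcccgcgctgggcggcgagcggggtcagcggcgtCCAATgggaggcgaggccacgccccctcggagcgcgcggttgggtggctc

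Set against Sf, the arrays labelled Sf.Il2-/- bear on the part that interleukin-2 has in scurfy T cells, and no replication gene passed the test there. Of the 38 members 0 rose and 0 fell (limma, Benjamini-Hochberg adjusted p under 0.05 over all genes tested), and 0 had an unadjusted p under 0.05. Over all genes 0.0436% rose and 0.236% fell in the same fit, so few genes of any kind passed, and 7.92% had an unadjusted p under 0.05 (5.46% higher and 2.46% lower). The median member difference was 0.13, against 0.08 over all genes, with 27 members above 0 and 11 below. Over all genes 7133 of 11460 were above 0 and 4327 below. Quantile normalization or centring of the arrays turned the sign of 8 of the 38, Cdc6, Mcm2, Mcm7, Prim1, Rfc4, Fen1, Lig1 and Rrm2. No member had all 3 Sf.Il2-/- arrays above all 3 Sf arrays (8.39% of all genes) or below them (3.72%). The 95% intervals of single members ran from -1.48 at the lowest to 1.21 at the highest, so these arrays do not show that the groups are alike.

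**Figure D2:**
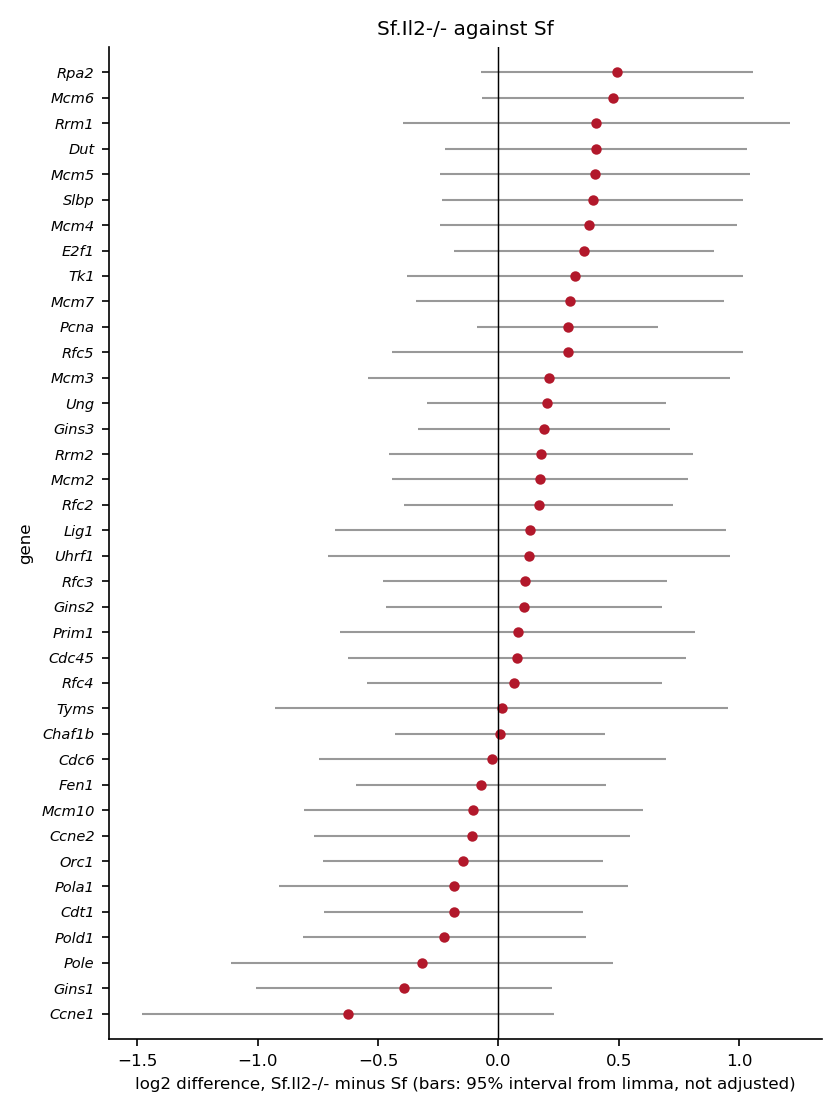
Log2 difference of each of the 38 members, Sf.Il2-/- minus Sf (x axis), with genes on the y axis ordered by the difference; points are the fitted differences and bars their 95% intervals from limma, not adjusted for many genes. The intervals of all 38 members include 0, from Rpa2 at the top (0.49) to Ccne1 at the bottom (-0.63).

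The members with the lowest unadjusted p in this comparison are given without having passed. On the higher side Rpa2, a subunit of the complex that coats single-stranded DNA, differed by 0.49 ± 0.25 (SE; limma adjusted p = 0.707). It read 8.86, 9.22 and 9.17 on the arrays labelled Sf.Il2-/-, against 8.35, 8.33 and 9.09 on the Sf arrays. The MCM subunit Mcm6 differed by 0.47 ± 0.24 (adjusted p = 0.707) and the clamp Pcna by 0.29 ± 0.17 (adjusted p = 0.773). On the lower side Ccne1, a cyclin that drives entry into S phase, differed by -0.63 ± 0.38 (adjusted p = 0.793), the GINS subunit Gins1 by -0.39 ± 0.27 (adjusted p = 0.830) and Pole, the catalytic subunit of polymerase epsilon, by -0.32 ± 0.35 (adjusted p = 0.911). In Rpa2, Mcm6 and Pcna it was Sf 3 alone among the Sf arrays that reached the Sf.Il2-/- range. The sign for Ccne1 turned with the probe set: its brightest one can also match related sequences by its suffix, and the gene's brightest probe set without such a suffix gave 0.20.

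Against the 1 B6 array, most replication genes read higher on the mutant arrays, and Rrm2, the small subunit of ribonucleotide reductase, passed the test in both. In Sf.Il2-/- against B6, 2 of 38 members rose (Rrm2 and Tk1) and 0 fell, while 14 had an unadjusted p under 0.05, all of them higher. Over all genes 1.49% rose and 1.2% fell, and 18.6% had an unadjusted p under 0.05 (6.09% higher and 12.5% lower). In Sf against B6, 1 of 38 members rose (Rrm2) and 0 fell, with 11 at an unadjusted p under 0.05, all higher. Over all genes there 1.31% rose and 1.16% fell, and 22.5% had an unadjusted p under 0.05 (5.79% higher and 16.8% lower). The median member difference was 0.75 in Sf.Il2-/- against B6, where all genes had -0.14, and 0.74 in Sf against B6, where all genes had -0.25. Both comparisons share the B6 array, which is assumed to vary like the mutant arrays. In such sorted bulk samples, more cycling cells and more of these RNAs per cell in the mutants cannot be told apart.

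The side on which the arrays lay was more uniform than the tests. All 3 Sf.Il2-/- arrays were above the B6 array in 32 of 38 members, against 24.7% of all genes, and below it in 0, against 44.5%. All 3 Sf arrays were above it in 24 of 38, against 19.6% of all genes, and below it in 0, against 46.9%. The B6 array was the lowest of the 7 in 23 of 38 members (60.5%) and the highest in 0. Over all genes it was the lowest in 14.7% and the highest in 37.3%. Scaling turned the sign of 3 members in Sf.Il2-/- against B6 (Cdt1, Mcm2 and Pold1) and of 5 in Sf against B6 (Mcm2, Mcm4, Mcm7, Gins3 and Pcna). Of 32 further probe sets of these genes above the filter, 28 shared the sign in Sf.Il2-/- against B6, 25 in Sf against B6 and 24 in Sf.Il2-/- against Sf.

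**Figure D3:**
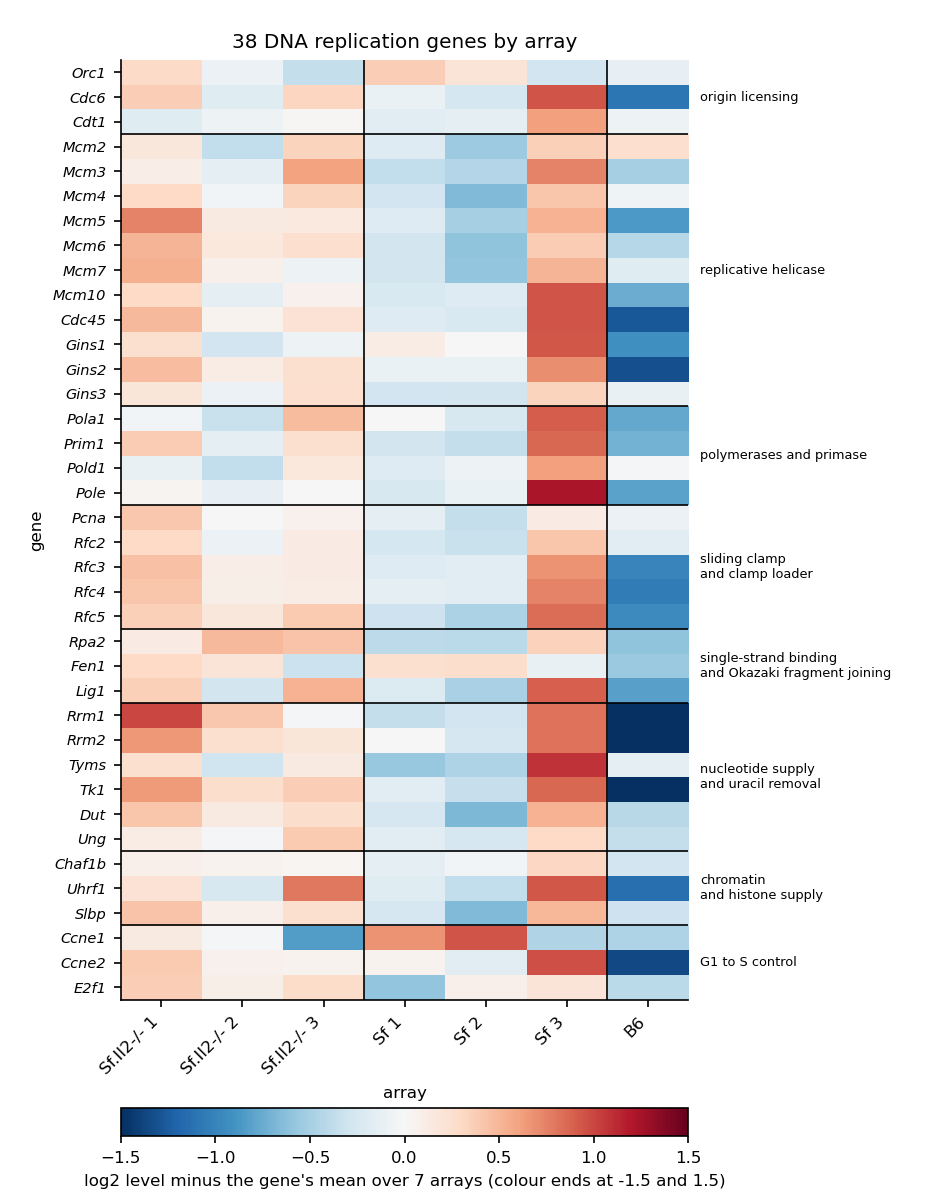
Level of each of the 38 members (rows, by role) on each of the 7 arrays (columns), as the log2 level minus that gene's mean over the 7 arrays; colours end at -1.5 and 1.5. The B6 column is the lowest in 23 rows, the Sf 3 column is the highest in 27, and Mcm2, Cdt1 and Pold1 are among the rows in which B6 is not low.

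Nucleotide supply held both members that passed. Rrm2 read 10.48, 10.07 and 10.01 on the arrays labelled Sf.Il2-/-, 9.82, 9.57 and 10.64 on the Sf arrays and 8.20 on the B6 array. Every mutant array was therefore above the B6 array by more than 1 log2 unit, and the mutant groups overlapped. The difference was 1.98 ± 0.40 (SE; 3.95-fold) in Sf.Il2-/- against B6 (limma adjusted p = 0.0357) and 1.81 ± 0.40 (3.50-fold) in Sf against B6 (adjusted p = 0.0491). Between the mutants it was 0.18 ± 0.28 (adjusted p = 0.948). Both adjusted p-values lie close to the threshold. The probe set used has a suffix that marks possible matches to related sequences. At the gene's brightest probe set without such a suffix the differences were 2.06 in Sf.Il2-/- against B6 and 1.84 in Sf against B6. Fitted with such probe sets, Rrm2 passed in neither comparison. Over 17 other settings of the same fit, Rrm2 passed in 10 against B6 for Sf.Il2-/- (adjusted p 0.0017 to 0.104) and in 6 for Sf (0.00238 to 0.119). The 10 include leaving out Sf 1, Sf 2 or Sf 3, which are not in that comparison and left its difference at 1.98. With Sf.Il2-/- 1, 2 or 3 left out alone, Rrm2 did not pass in Sf.Il2-/- against B6.

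Tk1, the cytosolic thymidine kinase that salvages thymidine and is made mainly in S phase, read 8.56, 8.19 and 8.29 on the arrays labelled Sf.Il2-/-, 7.75, 7.57 and 8.78 on the Sf arrays and 6.30 on the B6 array. All 6 mutant arrays lay above B6, with Sf 3 the highest. Tk1 rose in Sf.Il2-/- against B6 by 2.05 ± 0.44 (4.13-fold; limma adjusted p = 0.0453), and passed in 9 of 17 other settings (adjusted p 0.00138 to 0.122). With Sf.Il2-/- 1, 2 or 3 left out alone, Tk1 did not pass there. In Sf against B6 the difference was 1.73 ± 0.44 (adjusted p = 0.0717). Rrm1, the large subunit of the reductase, had differences of 2.03 ± 0.51 (adjusted p = 0.0742) in Sf.Il2-/- against B6 and 1.62 ± 0.51 (adjusted p = 0.115) in Sf against B6, and did not pass. Its next brightest probe set gave 1.68 in Sf.Il2-/- against B6 and 1.40 in Sf against B6. A dim one, at 4.84 to 5.67 over the arrays, gave 0.00045 and -0.05.

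The other nucleotide genes had smaller differences against B6. Dut, which keeps dUTP out of DNA, read 10.56, 10.29 and 10.40 on the arrays labelled Sf.Il2-/-, 9.89, 9.47 and 10.67 on the Sf arrays and 9.73 on the B6 array. Sf 2 lay below B6, so the Sf arrays straddled it. Ung, which removes uracil from DNA, differed from B6 by 0.52 in Sf.Il2-/- and 0.32 in Sf. Tyms, the thymidylate synthase, was dim at this probe set, between 4.82 and 6.47 on all arrays, and differed by 0.16 in Sf.Il2-/- against B6 and 0.15 in Sf against B6.

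**Figure D4:**
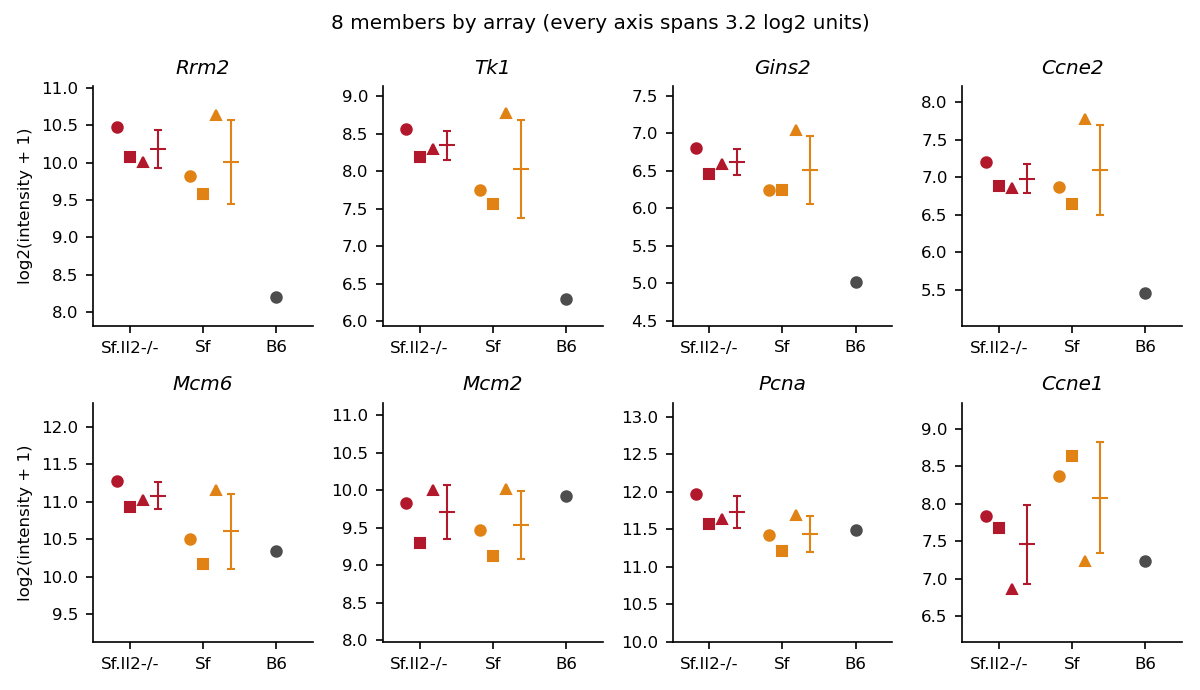
Log2(intensity + 1) of 8 members on each array, by group on the x axis; circles, squares and triangles are replicates 1, 2 and 3, and the bar beside each mutant group is its mean ± SD (n = 3), with 1 array for B6. Every y axis spans 3.2 log2 units but starts at its own level. Rrm2, Tk1, Gins2 and Ccne2 are lower on the B6 array than on any of the 6 mutant arrays, while Mcm2 and Pcna in B6 lie within the range of the mutant arrays.

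Of the 11 helicase genes 0 passed in any comparison. At an unadjusted p under 0.05 there were 4 higher in Sf.Il2-/- against B6 (6.09% of all genes), 3 higher in Sf against B6 (5.79% of all genes) and 0 between the mutants. Mcm6, a subunit of the ring, read 11.28, 10.94 and 11.02 on the arrays labelled Sf.Il2-/-, 10.50, 10.16 and 11.15 on the Sf arrays and 10.35 on the B6 array. Its difference from B6 was 0.73 ± 0.34 in Sf.Il2-/- (limma adjusted p = 0.292) and 0.26 ± 0.34 in Sf (adjusted p = 0.664). The next brightest Mcm6 probe set, whose suffix marks possible matches to related sequences, gave 0.84 and 0.74.

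Mcm2 had the lowest value of any member in both comparisons with B6. It read 9.83, 9.30 and 10.00 on the arrays labelled Sf.Il2-/-, 9.47, 9.12 and 10.02 on the Sf arrays and 9.92 on the B6 array, so B6 lay inside both mutant ranges. The difference was -0.21 ± 0.39 (limma adjusted p = 0.820) in Sf.Il2-/- against B6 and -0.38 ± 0.39 (adjusted p = 0.560) in Sf against B6. Quantile normalization turned both signs, to 0.11 and 0.17. Mcm4 was at -0.11 in Sf against B6 and 0.26 in Sf.Il2-/- against B6, and Mcm7 at 0.07 and 0.36. In Sf against B6 quantile normalization turned the sign of Mcm4, to 0.41, and centring that of Mcm7, to -0.0044. The other probe set of Mcm4 gave 0.14 in Sf against B6 and 0.33 in Sf.Il2-/- against B6. Further probe sets of Mcm7 gave 0.65, 0.25 and 0.38 in Sf against B6, and 0.85, 0.23 and 0.35 in Sf.Il2-/- against B6. The remaining ring subunits were higher, Mcm5 by 1.21 ± 0.41 in Sf.Il2-/- against B6 (adjusted p = 0.167) and 0.81 ± 0.41 in Sf against B6 (adjusted p = 0.267), and Mcm3 by 0.69 and 0.48.

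Among the activators, Gins2, a subunit of the GINS complex, read 6.80, 6.46 and 6.58 on the arrays labelled Sf.Il2-/-, 6.24, 6.24 and 7.04 on the Sf arrays and 5.02 on the B6 array, the lowest by more than 1 log2 unit. It came near the threshold without passing, at 1.60 ± 0.36 (limma adjusted p = 0.0526) in Sf.Il2-/- against B6 and 1.49 ± 0.36 (adjusted p = 0.0634) in Sf against B6. Cdc45, its partner in the active helicase, was at 1.52 ± 0.44 (adjusted p = 0.119) and 1.44 ± 0.44 (adjusted p = 0.112). Gins1 had 0.88 and 1.27, and Mcm10, which helps to start unwinding, had 0.82 and 0.92. Gins3 was the exception, at 0.22 and 0.04, and another of its probe sets had the opposite sign in both comparisons.

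In origin licensing, Cdc6 differed from B6 and Cdt1 hardly did. Cdc6, the loader of the MCM ring, read 7.75, 7.21 and 7.71 on the arrays labelled Sf.Il2-/-, 7.29, 7.12 and 8.33 on the Sf arrays and 6.31 on the B6 array, with no mutant array as low as B6. The difference was 1.25 ± 0.45 in Sf.Il2-/- against B6 (limma adjusted p = 0.192) and 1.28 ± 0.45 in Sf against B6 (adjusted p = 0.149), neither past the threshold. Cdt1, which loads the ring together with Cdc6, read 9.41, 9.52 and 9.60 on the arrays labelled Sf.Il2-/-, 9.42, 9.46 and 10.21 on the Sf arrays and 9.52 on the B6 array. Apart from Sf 3, the mutant arrays lay on both sides of B6 and close to it. Orc1, the origin recognition subunit, had 0.07 in Sf.Il2-/- against B6 and 0.21 in Sf against B6, and its other probe set gave 0.92 and 0.65.

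The polymerases and primase had 0 of 4 members past the threshold in each comparison. None of the 4 had an unadjusted p under 0.05 either. Prim1, the primase subunit that makes the RNA primers, read 9.0, 8.47 and 8.85 on the arrays labelled Sf.Il2-/-, 8.34, 8.26 and 9.48 on the Sf arrays and 7.91 on the B6 array. All 6 mutant arrays lay above B6, by 0.87 on average in Sf.Il2-/- and 0.79 in Sf. Pola1, the catalytic subunit of polymerase alpha, differed by 0.80 and 0.99, and Pole by 0.77 and 1.09. Pold1, the catalytic subunit of polymerase delta, stood apart at -0.10 in Sf.Il2-/- against B6 and 0.13 in Sf against B6; quantile normalization made the first 0.16.

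Pcna, the sliding clamp, had small differences against B6. It read 11.97, 11.57 and 11.64 on the arrays labelled Sf.Il2-/-, 11.42, 11.21 and 11.69 on the Sf arrays and 11.49 on the B6 array. The difference was 0.24 ± 0.24 in Sf.Il2-/- against B6 (limma adjusted p = 0.633) and -0.05 ± 0.24 in Sf against B6 (adjusted p = 0.916), and quantile normalization made the second 0.47. Of the loader that opens the clamp, Rfc3, Rfc4 and Rfc5 were higher by 1.21, 1.25 and 1.25 in Sf.Il2-/- against B6 and by 1.10, 1.19 and 0.97 in Sf against B6, each with all 3 arrays on that side. Rfc2 had 0.27 and 0.10. None of the 5 passed, and 3, 2 and 0 had an unadjusted p under 0.05 in Sf.Il2-/- against B6, in Sf against B6 and between the mutants. Those counted were all higher. Over all genes the shares were 18.6%, 22.5% and 7.92% in either direction, and 6.09%, 5.79% and 5.46% higher.

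Single-strand binding and Okazaki fragment joining had 3 members, all with both mutant groups above the B6 array and none past the threshold. Fen1, the flap nuclease that trims Okazaki fragments, read 9.30, 9.19 and 8.67 on the arrays labelled Sf.Il2-/-, 9.24, 9.25 and 8.88 on the Sf arrays and 8.44 on the B6 array. It was one of the few members with Sf 3 below the other Sf arrays, at a probe set whose suffix marks possible matches to related sequences. At its other probe set Sf 3 was the highest Sf array, at 8.63 against 8.11 and 8.08. Lig1, the ligase that seals the fragments, differed by 1.02 ± 0.51 in Sf.Il2-/- against B6 and 0.88 ± 0.51 in Sf against B6. Rpa2 differed by 0.95 and 0.45.

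For chromatin and histone supply, 0 of 3 measured genes passed, and 1 in each comparison with B6 had an unadjusted p under 0.05. That gene was Uhrf1, higher in both. Over all genes 6.09% were higher at that level in Sf.Il2-/- against B6 and 5.79% in Sf against B6. Levels of Slbp, which binds histone mRNA, were 10.53, 10.18 and 10.35 on the arrays labelled Sf.Il2-/-, 9.85, 9.44 and 10.60 on the Sf arrays and 9.80 on the B6 array. Its differences were 0.56 in Sf.Il2-/- against B6 and 0.17 in Sf against B6. Another of its probe sets above the filter had the opposite sign, at -1.43 and -1.09. The mean of its probe sets gave -0.30 and -0.42. Uhrf1, which carries DNA methylation through replication, differed by 1.39 ± 0.53 in Sf.Il2-/- against B6 (limma adjusted p = 0.204) and 1.26 ± 0.53 in Sf against B6 (adjusted p = 0.198). Chaf1b, a subunit of the chromatin assembly factor, differed by 0.34 and 0.33.

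Of the regulators of the G1 to S step, Ccne2, an E cyclin, read 7.21, 6.88 and 6.86 on the arrays labelled Sf.Il2-/-, 6.86, 6.64 and 7.78 on the Sf arrays and 5.46 on the B6 array. All mutant arrays were above B6, by 1.52 ± 0.41 in Sf.Il2-/- (limma adjusted p = 0.0961) and 1.63 ± 0.41 in Sf (adjusted p = 0.0707), short of the threshold. Ccne1, the other E cyclin, read 7.83, 7.68 and 6.86 on the arrays labelled Sf.Il2-/-, 8.36, 8.64 and 7.24 on the Sf arrays and 7.23 on the B6 array. In each mutant group replicate 3 was the low one at this probe set. At the gene's other probe set replicate 3 was the highest in each mutant group. That probe set read 6.48, 6.56 and 7.21 on the arrays labelled Sf.Il2-/- and 6.17, 6.11 and 7.35 on the Sf arrays. E2f1 itself differed by 0.65 in Sf.Il2-/- against B6 and 0.30 in Sf against B6.

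The Sf 3 array was the highest of the 7 in 27 of 38 members (71.1%), against 16.5% of all genes, and above both other Sf arrays in 35 of 38 (92.1%), against 68.0% of all genes. The exceptions, at the probe sets used, were Orc1, Fen1 and Ccne1. Each has another probe set above the filter, and on it Sf 3 was the highest Sf array. The median member difference from B6 was 0.84, 0.56 and 0.81 on the arrays labelled Sf.Il2-/- and 0.51, 0.36 and 1.23 on the Sf arrays. The same median over all genes was -0.17, -0.19 and -0.08, and -0.29, -0.41 and -0.10. Other values moved with Sf 3 too: the median of the CD4 T cell markers was 10.74 on it, against 10.03 on Sf 1 and 9.72 on Sf 2, and Il2 was 7.35, against 5.39 and 5.09. Their part in the result was not tested.

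**Figure D5:**
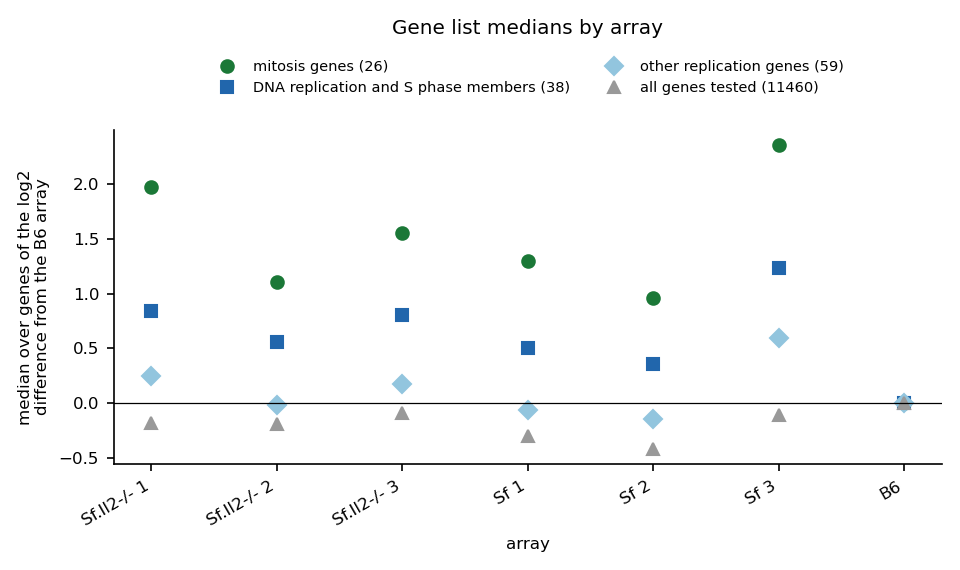
Median over genes of the log2 difference from the B6 array (y axis) on each array (x axis), for the 38 members, 59 other replication genes, 26 mitosis genes and all 11460 genes tested; the B6 array is 0 by construction. On the Sf 3 array the members reach 1.23 and the mitosis genes 2.35, and on each of the 6 mutant arrays both lists lie above all genes.

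Calls changed when Sf 3 was left out. In Sf.Il2-/- against Sf without it, 5 of 38 members rose and 0 fell, while 670 of all 11460 genes rose and 7.45% were called in either direction. The 5 were Mcm6 (0.75, limma adjusted p = 0.0318), Dut (0.73, adjusted p = 0.0391), Rpa2 (0.74, adjusted p = 0.0395), Rfc5 (0.70, adjusted p = 0.0423) and Slbp (0.71, adjusted p = 0.0452), and 34 of 38 members were above 0. The median of all genes was also above 0 there, at 0.20, against 0.42 for the members. When Sf 3 was left out, 15 members rose in Sf.Il2-/- against B6, as did 539 of all genes (13.6% called in either direction). Sf 3 is not part of that comparison, so its differences stayed the same, with Tk1 at 2.05 and Rrm2 at 1.98. What changed was the spread estimated over the groups. In Sf against B6, where 2 Sf arrays were left, 11 members rose, as did 679 of all genes (30.6% called in either direction).

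Within the array sets, the sign between the mutants differed. Among Sf.Il2-/- 1 and 2 and Sf 1 and 2, 32 of 38 members were higher in Sf.Il2-/-, with a median of 0.39, against 0.13 over all genes. Tested alone, that set gave 2 members past the threshold, Rrm1 higher (1.03) and Ccne1 lower (-0.75), with 4.98% of all genes called. Between Sf.Il2-/- 3 and Sf 3, 3 of 38 members were higher in Sf.Il2-/-, with a median of -0.41, against -0.00329 over all genes, and 1 array on each side gives no test. Against B6 within its set, 36 of 38 members were higher on Sf.Il2-/- 3 (median 0.81) and 37 of 38 on Sf 3 (median 1.23). The medians over all genes were -0.08 and -0.10. With the set as a block, 14 members rose in Sf.Il2-/- against B6, as did 464 of all genes (6.29% called in either direction). In Sf against B6 9 members rose, as did 394 of all genes (5.28% called), and between the mutants 0 members passed, with 0.646% of all genes called.

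Few other genes of DNA replication came near the threshold. Of 59 tested, 1 rose in Sf.Il2-/- against B6, and 0 passed in Sf against B6 or in Sf.Il2-/- against Sf. At an unadjusted p under 0.05 there were 8, all higher, in Sf.Il2-/- against B6 (18.6% of all genes in either direction, 6.09% higher). There were 9, of which 7 higher and 2 lower, in Sf against B6 (22.5% of all genes, 5.79% higher), and 3, all higher, in Sf.Il2-/- against Sf (7.92% of all genes, 5.46% higher). Their medians in these comparisons were 0.26, 0.16 and 0.06. The 1 was Ccna2, the cyclin of S phase and early mitosis. It read 9.97, 9.29 and 9.11 on the arrays labelled Sf.Il2-/-, 9.27, 8.86 and 9.99 on the Sf arrays and 7.33 on the B6 array, a difference of 2.13 ± 0.46 in Sf.Il2-/- against B6 (limma adjusted p = 0.0462). In Sf against B6 it had 2.05 ± 0.46 (adjusted p = 0.0518). Rpa1, the large subunit of the single-strand binding complex, had the lowest p of this list between the mutants, at 0.55 ± 0.18 (adjusted p = 0.430).

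Several mitosis genes passed against B6. Of 26 tested, 5 rose in Sf.Il2-/- against B6, 1 rose in Sf against B6, and 0 passed between the mutants. Over all genes 1.49% and 1.31% rose against B6. The mitosis medians in these comparisons were 1.58, 1.50 and 0.07, against -0.14, -0.25 and 0.08 over all genes. At an unadjusted p under 0.05 there were 20 and 18 against B6, all higher (6.09% and 5.79% of all genes higher), and 0 between the mutants. The mitotic cyclin Ccnb2 rose in both, by 2.57 ± 0.39 in Sf.Il2-/- (limma adjusted p = 0.0121) and 2.27 ± 0.39 in Sf (adjusted p = 0.0204). The others in Sf.Il2-/- against B6 were Birc5 (1.63, adjusted p = 0.0426), Mad2l1 (1.81, adjusted p = 0.0487), Cdc20 (2.00, adjusted p = 0.0492) and Cdk1 (2.23, adjusted p = 0.0495), of which the first serves the chromosomal passenger complex, the next pair the spindle checkpoint and its target, and Cdk1 drives mitosis. All 3 arrays were above B6 in 24 of 26 mitosis genes in Sf.Il2-/- (24.7% of all genes) and 25 of 26 in Sf (19.6% of all genes). Cenpa had the lowest p between the mutants, at 0.37 (adjusted p = 0.843).

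Most brakes on S phase entry read lower on the mutant arrays than on B6, and some higher. Of 15 tested, 11 were below 0 in each comparison with B6, as were 6907 of 11460 genes in Sf.Il2-/- and 7478 in Sf. Their medians were -0.50 and -0.58, against -0.14 and -0.25 over all genes. All 3 arrays lay below B6 in 9 and 10 of them (44.5% and 46.9% of all genes). At an unadjusted p under 0.05, 3 and 5 were lower (12.5% and 16.8% of all genes) and 2 and 2 higher (6.09% and 5.79%). Cdkn1a, which encodes the inhibitor p21, rose in Sf against B6. It read 5.99, 6.54 and 6.23 on the arrays labelled Sf.Il2-/-, 7.31, 7.16 and 7.49 on the Sf arrays and 5.26 on the B6 array. The difference of Sf from B6 was 2.06 ± 0.30 (limma adjusted p = 0.0111). Between the mutants it was lower in Sf.Il2-/- on every array, by -1.07 ± 0.21, which did not pass (adjusted p = 0.122). Foxo1, a transcription factor of quiescent T cells, fell in both groups against B6, by 1.84 ± 0.30 in Sf.Il2-/- (adjusted p = 0.0176) and decreased by 1.93 ± 0.30 in Sf (adjusted p = 0.0153). Of the 15 brakes tested, 0 others passed in any comparison.

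Markers of other cells moved with the groups as well. The summed CD4 T cell markers, on the log2 scale, lay at 13.86 to 14.02 on arrays labelled Sf.Il2-/-, 13.14 to 13.68 on Sf arrays and 14.17 on the B6 array, with 0 of 7 past the threshold in any comparison. At an unadjusted p under 0.05, 6 of the 7 were higher in Sf.Il2-/- than in Sf (5.46% of all genes) and 6 lower in Sf than in B6 (16.8% of all genes). Dendritic cell markers, of which 7 were measured and 4 tested, summed to 10.02 to 10.45, 9.82 to 10.34 and 7.56, and 1 of the 4, the antigen presentation gene Cd74, rose against B6 in both mutants. The neutrophil sum was highest on Sf.Il2-/- 2 (9.32) and Sf 1 (8.79), against 7.77 to 8.25 on the other 5 arrays; without those 2 arrays, 5 members rose in Sf.Il2-/- against B6 and 6 in Sf against B6, with 2.98% and 2.99% of all genes called in either direction. Natural killer markers summed to 9.12 to 10.04 on arrays labelled Sf.Il2-/-, 8.17 to 8.78 on Sf arrays and 7.74 on B6, with 1 of 2 tested past the threshold in Sf.Il2-/- against B6. Monocyte markers summed to 8.90 to 9.99, 9.05 to 9.75 and 9.68, and B cell markers to 10.97 to 11.12, 10.00 to 10.84 and 11.60. CD8, erythroid and thymocyte markers had their highest sums on the B6 array, at 8.29, 7.37 and 9.52. Besides Cd74 and the 1 natural killer marker counted here, no tested marker passed. No marker was at 0 on any array, and the part of these cells in the results was not tested.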

How the data were processed

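RNA was measured on 7 Affymetrix mouse arrays. The authors deposited 1 linear intensity per probe set and array, and the submitters' processing notes list GCRMA and GCOS; versions, order and build are not given in the sources used here. Median intensities of 29.3 to 32.4 and upper quartiles of 110 to 145 differed between arrays. The number of arrays limits the precision.

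From the deposited intensity, log2(intensity + 1) was taken. Of 45037 probe sets 34945 name 1 gene, 932 several and 9160 none, and 34741 symbols were updated through Entrez numbers. A gene was tested where its highest group mean was at least 5. Groups were fitted together with limma 3.58.1 in R 4.3.3 (lmFit, eBayes with trend; 4 residual and 9.57 total degrees of freedom), with Benjamini-Hochberg adjustment at 0.05 over 11460 genes. The code was tested on simulated data. Python 3.11.15, pandas 2.3.3 and matplotlib 3.10.9 were used for tables and figures.

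The members, lists and tests were chosen with earlier results of these data known. Named genes are members past the threshold, or in a direction without any the 3 with the lowest p, the brightest member of each role, and from other lists those past the threshold or the 1 with the lowest p; others complete an account of the members. Same-numbered mutant arrays deviated together (correlations 0.301, 0.211 and 0.505 over genes), although Sf.Il2-/- 1 correlated more with Sf 2 (0.333). The numbers come from the sample titles, which give no pairing. This check cannot tell pairs from the array sets, because Sf 3 and Sf.Il2-/- 3 share a set and the other mutant arrays share the other. The numbers were therefore used as a block only among the alternatives. Among the alternatives, the probe set without an _x_at or _s_at suffix was added after seeing the data. Chaf1a and some listed comparators and markers were not analysed here.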

Additional observations from a re-analysis of the deposited data

How the results depend on the processing

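Counts of members past the threshold depended on the setting. In Sf.Il2-/- against Sf the count of 0 held under 17 of 19 alternatives, the replicate block (0 members) included, and became 2 in the set of Sf 1, Sf 2, Sf.Il2-/- 1 and Sf.Il2-/- 2 alone and 5 without Sf 3; leaving out each replicate gave 0 to 5. Over all genes 0.279% were called there, 4.98% in that set alone and 0.0698% to 7.45% with each replicate left out. In Sf.Il2-/- against B6 the count of 2 became 0 with no filter and without the trend, 1 with a pseudocount of 16 and with each gene's probe sets averaged, 5 without Sf 1 and Sf.Il2-/- 2, 10 with only these groups fitted, and 14 with quantile normalization and with the array set as a block; leaving out each replicate gave 0 to 15. The calls over all genes moved as well, at 2.69%, and then 0.759% with no filter, 2.98% without those 2 arrays, 6.91% with only these groups, 6.30% with quantile normalization, 6.29% with the set as a block, and 1.13% to 13.6% with each replicate left out. In Sf against B6 the count of 1 became 0 with no filter, with centred arrays, without the trend, with a pseudocount of 16, with the mean of probe sets, with only these groups fitted and with the probe sets of no suffix. It became 6 without Sf 1 and Sf.Il2-/- 2, 9 with the array set as a block and 10 with quantile normalization, and leaving out each replicate gave 0 to 11. Over all genes 2.47% were called there, and 0.885% with no filter, 2.99% without those 2 arrays, 5.28% with the set as a block, 4.83% with quantile normalization, and 1.03% to 30.6% with each replicate left out. No paired analysis was possible against B6 because B6 shares only 1 replicate number with each mutant group. Between the mutants the block changed no call of a member. In Sf.Il2-/- against B6 the probe sets of no suffix kept the count at 2, but the members were Gins2 and Tk1, without Rrm2.

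The member median minus that of all genes stayed between 0.74 and 1.24 in Sf.Il2-/- against B6, where the array set as a block moved it to 1.24, against 0.89, and between 0.79 and 1.14 in Sf against B6. In Sf.Il2-/- against Sf it lay between -0.07 and 0.27, and so changed sign. Quantile normalization moved the median of all genes in Sf against B6 to 0.02, against -0.25, while the member median was 1.01.

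Other members than those named here turned sign too, and none that had passed did. Quantile normalization turned 6 of 38 in Sf.Il2-/- against Sf, 3 in Sf.Il2-/- against B6 and 3 in Sf against B6, centred arrays 2, 1 and 2, the array set as a block 0, 5 and 4, and the mean of probe sets 2, 1 and 4 of 35. Among the members that the rule names in each comparison, together with Rrm2 and Tk1, quantile normalization turned Rrm2 in Sf.Il2-/- against Sf (-0.17), Mcm2 (0.11), Pold1 (0.16) and Cdt1 (0.28) in Sf.Il2-/- against B6, and Mcm2 (0.17), Mcm4 (0.41) and Pcna (0.47) in Sf against B6. Of the same genes the array set as a block turned Mcm2 (0.18), Pold1 (0.29) and Cdt1 (0.29) in Sf.Il2-/- against B6 and Mcm2 (0.0034), Mcm4 (0.25) and Pcna (0.036) in Sf against B6. Still of these genes alone, centred arrays turned Cdt1 (0.0093) in Sf.Il2-/- against B6, and the mean of probe sets turned Mcm4 (0.016) in Sf against B6. Probe sets of no suffix turned Ccne1 (0.20) in Sf.Il2-/- against Sf and Mcm2 against B6 in Sf.Il2-/- (0.084) and Sf (0.0071). The set of Sf 1, Sf 2, Sf.Il2-/- 1 and Sf.Il2-/- 2 alone turned Pole in Sf.Il2-/- against Sf (0.13), and leaving out Sf 1 and Sf.Il2-/- 2 together turned Pold1 against B6 (0.035). Leaving out each replicate gave -0.58 to 0.15 for Pole (above 0 without Sf 3) and -0.042 to 0.49 for Rrm2 (below 0 without Sf 2) in Sf.Il2-/- against Sf. Against B6 it gave -0.23 to 0.035 for Pold1 (above 0 without Sf.Il2-/- 2) and -0.056 to 0.039 for Cdt1 (above 0 without Sf.Il2-/- 1) in Sf.Il2-/-. In Sf it gave -0.41 to 0.13 for Mcm4 and -0.17 to 0.070 for Pcna (both above 0 without Sf 2). The cause of these changes was not tested. Signal over background limits dim members such as Tyms.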
